A study of Oryza sativa with 24 samples.

Results

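Anthers of 2 rice lines that had received no cold were compared, PL9 against Sasanishiki, with 3 RNA-seq libraries of each, which are 6 of the 24 libraries of the series. The libraries were chosen by their labels alone: the genotype PL9 or Sasanishiki and no treatment. Sasanishiki is a Japanese japonica cultivar, and PL9 is a line for which the labels give only the name. The series asked how rice anthers respond to low temperature in 4 lines (Nipponbare, Sasanishiki, PL9 and Lambayeque1), each untreated or held at 12 °C for 4 days. The question here is what already differed between the lines before any cold. All plants shared 1 growth regime, a greenhouse with days of 25 °C and nights of 19 °C, in pots of 20 plants whose side shoots were removed to leave the main stem. The titles number 3 libraries in each group, while the series text speaks of a pair of replicates, and all 3 were used. All anthers were labelled as booting stage, the time when the panicle is still wrapped in the flag leaf sheath. The labels do not tell whether replicate libraries derive from different plants or pots, so the p-values below measure the spread between libraries, which may be technical.

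In the anther, a nutritive cell layer called the tapetum surrounds the germ cells and feeds them through meiosis and the young microspore stage. Sugar reaches the locule through cell wall invertases and sugar transporters, gibberellin is needed for the tapetum to develop and degrade on time, and abscisic acid and small heat shock proteins are known for their part in stress responses. Cold at the young microspore stage is known to make rice pollen sterile, so the state of these pathways in anthers that have not been chilled is the background on which any response is built.

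The 2 lines differed over a large part of the transcriptome. Of 22495 genes tested, 5241 (23.3%) passed limma's test at an adjusted p under 0.05: 2893 were higher in PL9 (12.9%) and 2348 were lower (10.4%). With a log2 difference of at least 1, 3267 genes passed (14.5%), 1859 higher (8.26%) and 1408 lower (6.26%) in PL9. At a log2 difference of at least 2, 833 were higher and 447 lower. Differences are between group means of log2(value + 1), which understates the change of genes with low values. The 3 values of PL9 and the 3 of Sasanishiki did not overlap for 7925 genes (35.2%), and 4904 genes (21.8%) both passed the test and had groups that did not overlap. The median difference over all tested genes was -0.02.

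**Figure D1:**
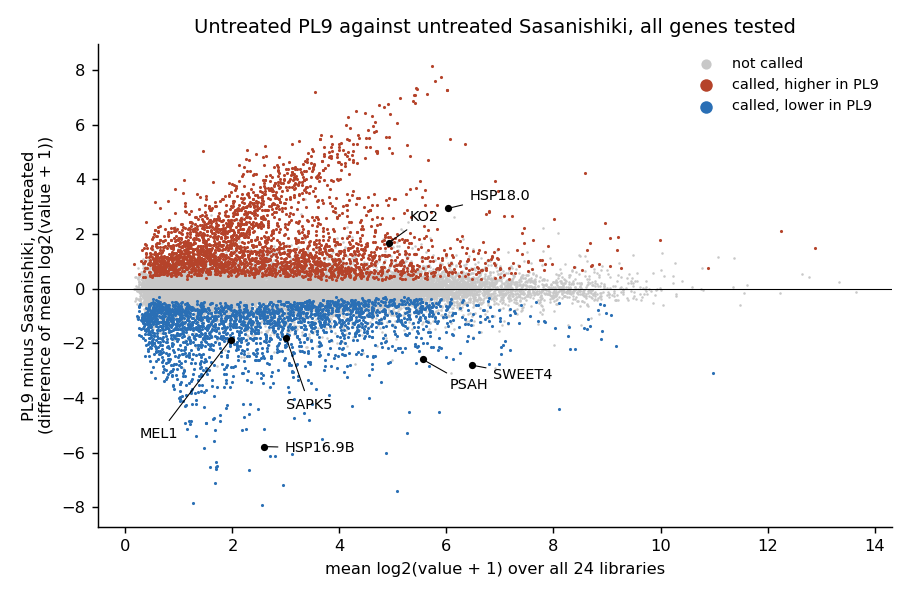
Each point is 1 of the 22495 tested genes, with its mean log2(value + 1) over all 24 libraries on the x axis and the difference of mean log2(value + 1), untreated PL9 minus untreated Sasanishiki (n = 3 each), on the y axis; red and blue points passed limma's test. The called genes lie on both sides of 0, 2893 above and 2348 below it, and differences beyond 6 occur in both directions.

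Before any gene is described, libraries 3 and 1 of Sasanishiki need their own account. Within Sasanishiki, libraries correlated at r = 0.925 to 0.957 over the tested genes, and within PL9 at 0.957 to 0.972, while pairs across the lines reached 0.827 to 0.876. Library 3 of Sasanishiki had the lower correlations within its line, 0.933 and 0.925, and the values on identifiers with a single row summed to 780761 in it, against 619187 to 673646 in the other 5 libraries. The maturing pollen marker EXPB9 (Os10g0548600), which encodes a beta-expansin of grass pollen, stood at 3.45, 0.0603 and 375 in Sasanishiki libraries 1, 2 and 3 and at 0.324, 1.13 and 0.103 in PL9. It was the 1 member of the pollen marker list whose name could be checked. Without Sasanishiki library 3, 6101 genes passed the test in place of 5241, and 4656 of them were among the 5241. Results that lose their call without library 3 are named below, and its part in the results was not tested. Without Sasanishiki library 1, 3892 genes passed, the fewest with any untreated library left out, and 3738 of them were among the 5241. Many of the calls below were lost without library 1. Counts by list were repeated without library 3 only, so they do not show how the lists depend on library 1.

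The label anther was checked against floral markers. Genes of stamen identity were high in all 6 libraries: MADS16 (Os06g0712700), the gene that specifies stamens and lodicules, lay between 830.4 and 1067 in Sasanishiki and between 972 and 1299 in PL9. The carpel gene DL (Os03g0215200) lay between 0.198 and 1.26 in Sasanishiki and between 0.0606 and 0.234 in PL9. Other carpel and outer floret genes were present: the 8 tested summed to 69 to 88 in Sasanishiki and 74.3 to 94.8 in PL9. Of the 3 stamen identity genes tested, 1 was called (33.3%, against 23.3% of all genes). MADS4 (Os05g0423400), a partner of MADS16, was higher in PL9, with values of 70.3, 97.3 and 120 in Sasanishiki and 159, 193 and 212 in PL9. Its groups did not overlap, its log2 difference was 0.99 (SE 0.20, limma, adjusted p = 0.000891), and after cold it was 0.67 (adjusted p = 0.0213).

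In the heat shock list, the listed values of 1 gene family differed between the lines in both directions. Of 21 tested members, 4 were higher and 1 lower in PL9 (23.8% called, against 23.3% of all genes). All 5 encode small heat shock proteins, chaperones that hold unfolding proteins in solution. HSP16.9B (Os01g0136200), a cytosolic class I member, was listed at 65, 13.7 and 200 in the Sasanishiki libraries and at 0, 0.195 and 0 in those of PL9. Every Sasanishiki library was above every PL9 library, although the Sasanishiki values themselves were widely spread. The log2 difference was -5.77 (SE 0.67, limma, adjusted p = 1.45e-06), a size that depends on the added 1 because PL9 was near 0, and the call held under all 14 alternative settings. The other lines were not at 0, with means of 9.78 in untreated Nipponbare and 60.1 in untreated Lambayeque1 (n = 3 each). PL9 was near 0 after cold as well. HSP16.9B has neighbours of the same family on chromosome 1, and reads shared between similar copies may have been split among them. A gene that is not transcribed and one that is missing from PL9 or differs from the reference sequence would all be listed near 0. They cannot be told apart here.

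HSP18.0 (Os01g0184100), also a small heat shock protein gene of chromosome 1, went the other way. It stood at 30.8, 7.2 and 83 in Sasanishiki and at 307, 349 and 91.6 in PL9. The highest Sasanishiki library came close to the lowest PL9 library, and the groups did not overlap. The log2 difference was 2.94 (SE 0.73, limma, adjusted p = 0.00523), and 3.15 after cold (adjusted p = 0.00355). The call was lost at adjusted p = 0.105 when the 6 untreated libraries were fitted alone.

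Members of a cluster of small heat shock genes on chromosome 3 were higher in PL9 as well. The name check cannot tell these neighbours apart, so they are given by identifier, and reads shared between near-identical copies may have been split among them. Os03g0267000 stood at 15.2, 4.73 and 31 in Sasanishiki and at 155, 161 and 124 in PL9, a log2 difference of 3.35 (SE 0.51, limma, adjusted p = 4.92e-05). Os03g0266900 stood at 8.31, 3.64 and 9.86 against 83.7, 82.9 and 35.6, a log2 difference of 3.04 (SE 0.52, adjusted p = 0.000181). In both, every PL9 library exceeded every Sasanishiki library, and both calls held under all 14 alternatives. Os03g0267200 differed by 1.40 (SE 0.33, adjusted p = 0.00366), with its lowest PL9 library at 17.1 and its highest Sasanishiki library at 16.7, and lost the call when the 6 untreated libraries were fitted alone (adjusted p = 0.128). After cold the neighbours parted: Os03g0267000 was still higher in PL9 by 1.61 (adjusted p = 0.0336), and Os03g0266900 gave a log2 difference of -0.60 (adjusted p = 0.532).

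The remaining small heat shock genes, looked up after these values had been seen, did not move as a block. HSP16.9A, HSP24.1 and HSP26.7 of the original list missed the threshold, with log2 differences of -1.60, -1.65 and 0.14 (limma, adjusted p = 0.115, 0.213 and 0.934). Of 6 further tested members, HSP19.0 (Os02g0217900) was higher in PL9 by 1.42 (SE 0.32, adjusted p = 0.00258), from 0.413, 1.54 and 1.05 in Sasanishiki to 2.56, 4.79 and 5.85. The other 5 further members did not pass. No heat shock factor on the list and neither HSP81-1 nor HSP81-2, which encode HSP90 chaperones, passed either. In the original list, 4 members were higher and 3 lower in PL9 without Sasanishiki library 3. For several of these genes, HSP16.9A, HSP26.7 and HSP24.1 among them, library 3 of Sasanishiki was the highest of all 6.

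**Figure D2:**
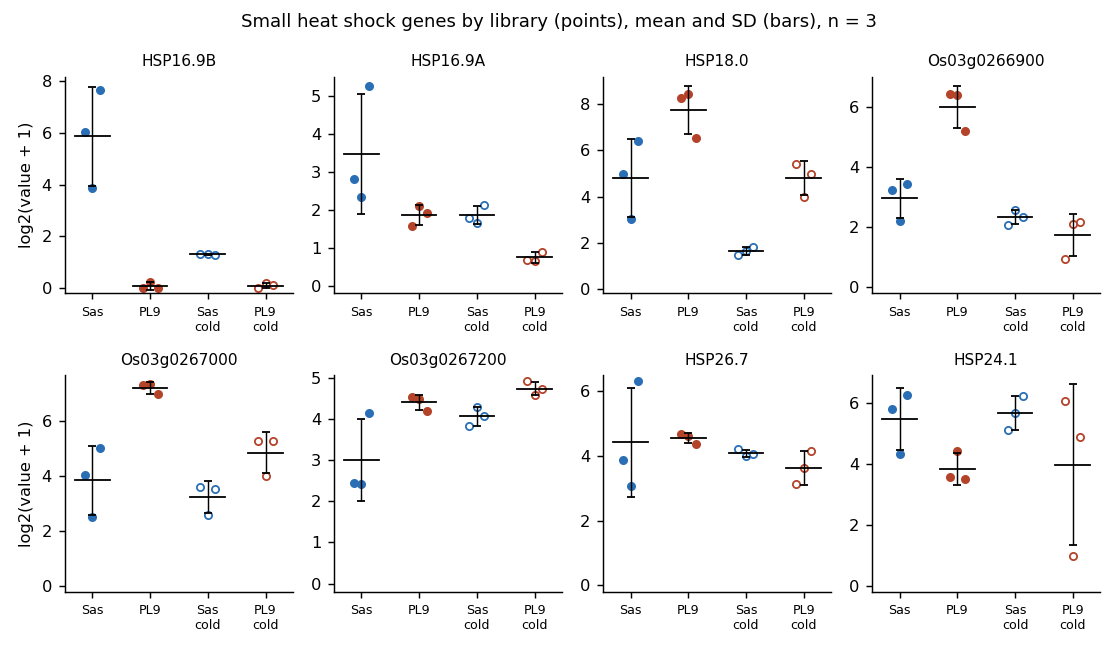
Each panel shows 1 small heat shock gene as log2(value + 1) on the y axis for Sasanishiki (blue) and PL9 (red), untreated (filled points) and after cold (open points); points are libraries, and the black bars are the mean and SD (n = 3). HSP16.9B lies near 0 in all untreated PL9 libraries, while HSP18.0 and the 3 chromosome 3 genes lie above Sasanishiki in untreated PL9.

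Among sugar supply genes, the largest difference was at the transporter SWEET4 (Os02g0301100), a hexose transporter known in rice and maize for filling the grain. Its values were 470, 244 and 226 in Sasanishiki and 54, 33.2 and 40.7 in PL9. All Sasanishiki libraries were several times above all PL9 libraries, with means of 313 ± 136 and 42.7 ± 10.5 (SD, n = 3). The log2 difference was -2.79 (SE 0.25, limma, adjusted p = 3.01e-08) and passed under all 14 alternatives. After cold the lines met, at 67.8, 93.8 and 62.7 in Sasanishiki and 66.2, 66.8 and 66.3 in PL9. Of the 8 tested sugar supply genes, 2 were called (25%, against 23.3% of all genes). The other one was CIN3 (Os04g0413200), a cell wall invertase, at a log2 difference of -2.09 (SE 0.60, adjusted p = 0.0153). Its groups overlapped, with 3.12 to 59.5 in Sasanishiki against 1.99, 7.31 and 1.45 in PL9, and the call was lost without Sasanishiki library 3 (-1.16, adjusted p = 0.0859) or library 1 (adjusted p = 0.0532). The sucrose transporter SWEET11 (Os08g0535200) had groups that did not overlap, 168, 205 and 169 against 95.2, 110 and 102, and missed the threshold (log2 difference -0.81, adjusted p = 0.0687). Of the 6 starch genes, 0 passed limma's adjusted threshold and 2 had an unadjusted p under 0.05. In the fit without Sasanishiki library 3, 2 were higher in PL9.

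Of the 3 tested markers of green tissue, 2 were lower in PL9 beside these sugar genes (66.7%, against 23.3% of all genes). PSAH (Os05g0560000), a subunit of photosystem I, stood at 60.6, 25.9 and 41.4 in Sasanishiki and at 5.49, 6.72 and 5.58 in PL9. The groups lay far apart, with a log2 difference of -2.58 (SE 0.49, limma, adjusted p = 0.000517) that held under all 14 alternatives. PETE (Os06g0101600), which encodes plastocyanin, differed by -1.30 (SE 0.42, adjusted p = 0.028) and missed the threshold without Sasanishiki library 3 (adjusted p = 0.095). The light-harvesting gene CAB1R (Os09g0346500) was at 141, 103 and 162 against 54.6, 47.3 and 76.1 and was not called (adjusted p = 0.363). The summed level of the 3 markers ranged from 173 to 259 in Sasanishiki and from 68 to 108 in PL9. Their part in the other results was not tested. In anthers sampled in bulk, fewer cells of a type and less RNA per cell cannot be told apart.

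Among the 8 tested gibberellin genes, 50% were called, against 23.3% of all genes. In PL9, 2 that act early in synthesis were higher and 2 others were lower. Without Sasanishiki library 3 the counts were 3 and 1. KO2 (Os06g0570100), the ent-kaurene oxidase that acts early in gibberellin synthesis, stood at 12.4, 15.2 and 18.1 in Sasanishiki and at 47.1, 55 and 49.2 in PL9. Replicates were tight in both lines and did not come near each other. The log2 difference was 1.68 (SE 0.19, limma, adjusted p = 1.27e-06), it held under all 14 alternatives, and it was 1.45 after cold (adjusted p = 8.97e-06). KO2 values in the other untreated lines were closer to PL9, with means of 37 in Nipponbare and 65.7 in Lambayeque1. KS1 (Os04g0611800), the ent-kaurene synthase one step before it, differed by 0.58 (SE 0.18, adjusted p = 0.0228).

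Further down the pathway, GA20OX3 (Os07g0169700), a gibberellin 20-oxidase that makes the precursors of the active hormone, was lower in PL9 by -1.13 on the log2 scale (SE 0.33, limma, adjusted p = 0.0158), with overlapping groups. SLR1 (Os03g0707600), the DELLA protein that represses gibberellin responses, stood at 93, 72.7 and 41.7 in Sasanishiki and at 25, 30.2 and 29.3 in PL9. Its groups did not overlap, and its log2 difference was -1.20 (SE 0.38, adjusted p = 0.0287). Without Sasanishiki library 3, GA20OX3 and KS1 missed the threshold (adjusted p = 0.0847 and 0.0653) and SLR1 kept it (0.00895), although SLR1 was not called under 6 of 14 alternatives. KAO (Os06g0110000), the ent-kaurenoic acid oxidase that follows KO2, had overlapping groups and was not called (1.47, adjusted p = 0.315), but was higher in PL9 without that library (2.82, adjusted p = 0.0206). Without Sasanishiki library 1, KS1, GA20OX3 and SLR1 all missed the threshold (adjusted p = 0.079, 0.0531 and 0.147). Neither KS1, GA20OX3 nor SLR1 was called after cold.

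Of 17 tested genes of abscisic acid synthesis and signalling, 3 were called, all lower in PL9, which as a share is below the 23.3% called over all genes. A difference below 0 was found in 15 of the 17, against 51.5% of all tested genes, with a median of -0.42 against -0.02. The summed level of the list overlapped between the lines, at 1750, 1160 and 1040 in Sasanishiki and 1050, 1080 and 578 in PL9. After cold the median of the list was 0.31, and 0 of its genes were called the same way in both treatments. The counts were 1 higher and 5 lower without Sasanishiki library 3. SAPK5 (Os04g0691100), a protein kinase of the SnRK2 family activated under osmotic stress, stood at 20.7, 15 and 9.23 in Sasanishiki and at 3.24, 3.47 and 3.58 in PL9. Every Sasanishiki library was above every PL9 library, with a log2 difference of -1.78 (SE 0.23, limma, adjusted p = 6.65e-06) that held under all 14 alternatives. The related kinase SAPK2 (Os07g0622000) differed by -1.05 (SE 0.37, adjusted p = 0.0446), with overlapping groups, and ABA1 (Os04g0448900), the zeaxanthin epoxidase of abscisic acid synthesis, by -0.70 (SE 0.23, adjusted p = 0.0346). Both calls rest on Sasanishiki library 1: without it SAPK2 gave -0.56 (adjusted p = 0.31) and ABA1 -0.47 (adjusted p = 0.213), and SAPK2 was not called under 9 of 14 alternatives. NCED3 (Os03g0645900), the rate-limiting dioxygenase of that synthesis, reached 15.8 in 1 Sasanishiki library against 0.354 in another and was not called (adjusted p = 0.101). Without Sasanishiki library 3, NCED3 was called lower in PL9 (-2.41, limma, adjusted p = 0.0026). ABA8OX2 (Os08g0472800), which breaks the hormone down, had groups that did not overlap, 286 to 429 against 118 to 199, and also missed the threshold (adjusted p = 0.0914). It passed only when the 6 untreated libraries were fitted alone (adjusted p = 0.0326).

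Of 15 tested cold-responsive transcription factors, 3 were called (20%, against 23.3% of all genes), all lower in PL9, and 4 without Sasanishiki library 3. All 15 had differences below 0, with a median of -0.61. The summed level of the list overlapped between the lines, at 921, 503 and 325 in Sasanishiki and 307, 424 and 224 in PL9. After cold the median of the same list was 0.55, and 0 were called the same way in both treatments. DREB2B (Os05g0346200), a dehydration-responsive element binding factor, stood at 116, 83.9 and 55.6 in Sasanishiki and at 35.5, 33.4 and 37.3 in PL9. Its PL9 values were nearly equal and lay below all of Sasanishiki, with a log2 difference of -1.18 (SE 0.18, limma, adjusted p = 3.64e-05) that held under all 14 alternatives. NAC4 (Os01g0816100), a stress-responsive NAC factor, was lower by -1.39 (SE 0.49, adjusted p = 0.046), and MYB3R-2 (Os01g0841500), a cell cycle regulator known for cold tolerance when overexpressed, by -0.51 (SE 0.17, adjusted p = 0.0298). Groups overlapped for both, and library 1 of Sasanishiki was the highest for NAC4 at 77.4, with 9.83 in the lowest. Without that library NAC4 gave -0.62 (adjusted p = 0.339) and MYB3R-2 -0.45 (adjusted p = 0.115), and NAC4 was not called under 8 of 14 alternatives.

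Of 10 tested genes for proteins that protect cells in the cold, 1 was higher and 1 lower in PL9 (20%, against 23.3% of all genes). LEA3-2 (Os03g0322900), a late embryogenesis abundant protein, was higher in PL9, at 46.7, 38.1 and 11 against 9.98, 2.79 and 3.02, with a log2 difference of 2.35 (SE 0.57, limma, adjusted p = 0.00437). LTI6A (Os07g0635900), a small membrane protein gene known to be induced by low temperature, was lower, at 274, 308 and 139 against 508, 424 and 440 (95% interval of the log2 difference -1.66 to -0.34, adjusted p = 0.0261). Groups did not overlap for either gene, and neither was called after cold. LEA3-2 lost its call when the 6 untreated libraries were fitted alone (adjusted p = 0.074). LTI6A lost its call there too, and without Sasanishiki library 1 (adjusted p = 0.0925) or PL9 library 3 (adjusted p = 0.171). The dehydrin RAB16C (Os11g0454000) had groups that did not overlap, at 7.26, 0.682 and 0.2 against 42, 8.27 and 10.9, and was not called (log2 difference 2.72, adjusted p = 0.0847). Its neighbours RAB16B and RAB21 gave 1.90 and 2.25 and were not called either (adjusted p = 0.19 and 0.285).

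Of 12 tested jasmonate genes, 2 were called (16.7%, against 23.3% of all genes), both lower in PL9, and 4 were lower without Sasanishiki library 3. Both encode JAZ repressors of jasmonate signalling. TIFY10B (Os07g0615200) stood at 110, 59.5 and 61.1 against 37.8, 36.6 and 44.9, with a log2 difference of -0.88 (SE 0.29, limma, adjusted p = 0.0319). TIFY11C (Os03g0180900) differed by -1.31 (SE 0.37, adjusted p = 0.0133), with 1 Sasanishiki library, at 95.5, inside the PL9 range of 65.5 to 112. Both calls were lost without Sasanishiki library 1 (adjusted p = 0.203 and 0.0709), and neither gene was called after cold, with log2 differences of 0.29 and -0.11. The JAZ gene TIFY11E (Os10g0391400) had groups that did not overlap, at 61.1, 72.4 and 70 in Sasanishiki and 163, 137 and 178 in PL9. Its log2 difference of 1.21 was not called (adjusted p = 0.177), except when the 6 untreated libraries were fitted alone (adjusted p = 0.00423).

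Of 6 tested meiosis genes, 1 was higher and 2 were lower in PL9 (50%, against 23.3% of all genes). The 2 lower ones, MEL1 and SPO11-1, were also lower after cold. Without Sasanishiki library 3 the counts were 2 higher and 1 lower. MEL1 (Os03g0800200), a germline Argonaute protein needed for meiosis in rice, stood at 7.51, 5.43 and 8.95 in Sasanishiki and at 1.24, 1.24 and 1.27 in PL9. The PL9 libraries were nearly identical and lay below all of Sasanishiki, with a log2 difference of -1.86 (SE 0.27, limma, adjusted p = 2.94e-05) that held under all 14 alternatives. After cold it was -2.04 (adjusted p = 9.6e-06). SPO11-1 (Os03g0752200), which makes the DNA breaks that start meiotic recombination, was lower by a log2 of -0.44 untreated (SE 0.15, adjusted p = 0.0438) and -0.71 after cold (adjusted p = 0.00184). MER3 (Os02g0617500), a helicase for crossovers, was higher in PL9 at 2.31, 2.1 and 2.23 against 0.865, 1.37 and 1.83, a log2 difference of 0.47 (SE 0.16, adjusted p = 0.0388), and was not called after cold. The mitotic cyclin CYCB1-3 (Os01g0281200) was lower in PL9, at 0.646, 1.5 and 0.151 against 3.97, 2.36 and 5.87 (log2 difference -1.53, SE 0.27, adjusted p = 0.000266), as it was after cold (-1.34, adjusted p = 0.00112). The call was lost when the 6 untreated libraries were fitted alone (adjusted p = 0.0529). CYCB1-3 was the 1 called gene among 7 cyclins and cyclin-dependent kinases (14.3%, against 23.3% of all genes). SPO11-1 and MER3 each missed the threshold under 8 alternatives, and SPO11-1 without Sasanishiki library 3 (adjusted p = 0.0565).

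**Figure D3:**
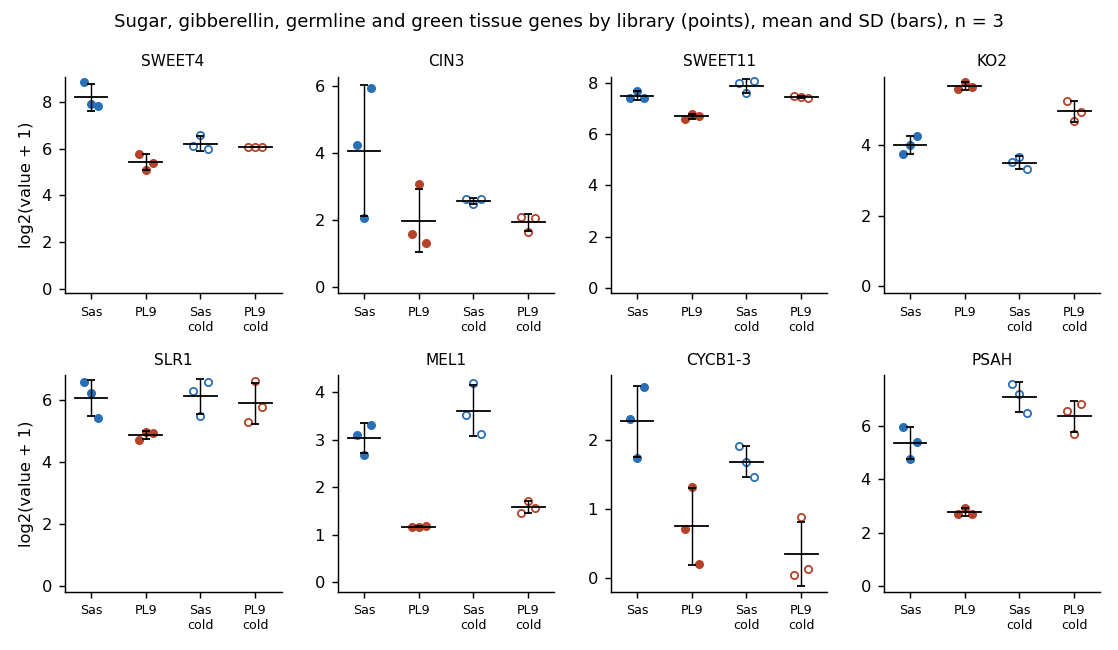
Each panel shows 1 gene as log2(value + 1) on the y axis for Sasanishiki (blue) and PL9 (red), untreated (filled points) and after cold (open points); points are libraries, and the black bars are the mean and SD (n = 3). SWEET4 and PSAH separate the untreated lines and less so the cold ones, while KO2 and MEL1 separate the lines in both treatments.

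No difference was detectable in the regulators of the tapetum. Of 6 tested, 0 passed limma's adjusted threshold and 1 had an unadjusted p under 0.05. UDT1 (Os07g0549600), a basic helix-loop-helix factor for early tapetum differentiation, gave 0.76 (95% interval -0.11 to 1.64), EAT1 (Os04g0599300), a factor for programmed death of the tapetum, 0.20 (-0.52 to 0.92), and TIP2 (Os01g0293100), a factor between them, -0.24 (-0.66 to 0.18). The intervals are wide enough for a difference of nearly 1 on the log2 scale for EAT1 and of more for UDT1, while that of TIP2 reaches -0.66. Of 7 tested genes of tapetum products and the pollen wall, 1 was called (14.3%, against 23.3% of all genes). RAFTIN1 (Os08g0496800), whose wheat counterpart coats the orbicules that carry sporopollenin, was higher in PL9, at 1683, 2543 and 1842 against 1194, 1116 and 1173. Its log2 difference was 0.78 (SE 0.27, limma, adjusted p = 0.0393), and 9 of 14 alternatives did not call it, the fit without Sasanishiki library 3 among them (adjusted p = 0.0621).

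Of the 8 tested genes of the carpel and outer floret list, 1 was called in each direction (25%, against 23.3% of all genes). MADS17 (Os04g0580700) and MADS6 (Os02g0682200) are related MADS-box genes of the AGL6 type, which act in floret patterning. MADS17 was higher in PL9, at 2.46, 3.1 and 4.06 against 0.859, 1.41 and 0.607, with a log2 difference of 1.11 (SE 0.26, limma, adjusted p = 0.0032). MADS6 was lower, at 0.383, 1.95 and 1.12 against 2.59, 4.92 and 4.45, with a log2 difference of -1.25 (SE 0.32, adjusted p = 0.0075). Groups did not overlap for either. The MADS6 call was lost when the 6 untreated libraries were fitted alone (adjusted p = 0.0701). After cold, MADS6 was called again (-1.01, adjusted p = 0.0337) and MADS17 was not (0.66, adjusted p = 0.0891). The summed level of the list ranged from 69 to 88 in Sasanishiki and from 74.3 to 94.8 in PL9.

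Of 7 tested clock and heading date genes, 2 were called (28.6%, against 23.3% of all genes), both lower in PL9, and 4 were lower without Sasanishiki library 3. PRR1 (Os02g0618200), a pseudo-response regulator of the core clock, lay between 14.8 and 21.1 in PL9, with 41.6 and 41 in Sasanishiki libraries 1 and 2 and no overlap with library 3 either (log2 difference -0.93, SE 0.25, limma, adjusted p = 0.00884). PCL1 (Os01g0971800), the rice counterpart of the Arabidopsis evening complex gene LUX, differed by -1.31 (SE 0.45, adjusted p = 0.0381). Both calls were lost without Sasanishiki library 1 (adjusted p = 0.0566 and 0.181), and 0 genes of the list were called the same way after cold. All 7 had differences below 0, with a median of -0.42. The summed level of the list overlapped between the lines, at 197, 170 and 117 in Sasanishiki and 87.5, 121 and 123 in PL9. No label gives the hour at which anthers were taken.

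Among the remaining lists, SODCC2 (Os07g0665200), a cytosolic copper-zinc superoxide dismutase, was the 1 antioxidant gene of 12 that passed (8.33%, against 23.3% of all genes). It was higher in PL9 at 537, 696 and 669 against 303, 262 and 476, a log2 difference of 0.91 (SE 0.25, limma, adjusted p = 0.0115). Its call was lost without Sasanishiki library 1 (adjusted p = 0.0525). Without Sasanishiki library 3, 5 antioxidant genes were higher in PL9 in place of 1. PIKM2 (Os11g0688832), a member of the Pik pair of blast resistance genes on chromosome 11, lay at 0.756, 1.2 and 0.835 in PL9 and at 0.0524, 0.054 and 0.111 in Sasanishiki, a log2 difference of 0.84 (SE 0.20, adjusted p = 0.00408), with 0.93 after cold (adjusted p = 0.00206). Of the genes known from cold tolerance loci, LTG1 (Os02g0622100), a casein kinase for growth at low temperature, was lower by -0.41 on the log2 scale (SE 0.14, adjusted p = 0.0361), a call lost without Sasanishiki library 1 (adjusted p = 0.0958), and COLD1 (Os04g0600800), a cold-sensing membrane protein, gave 0.12 (95% interval -0.17 to 0.41, adjusted p = 0.603). Of the 3 phenylpropanoid genes and of the 3 aquaporins, 0 passed limma's test, and 0 had an unadjusted p under 0.05. The reference genes ACT1, an actin, and REFA1, a translation elongation factor, gave -0.21 (adjusted p = 0.511) and -0.44 (adjusted p = 0.0536). REFA1 values did not overlap, at 408, 382 and 471 in Sasanishiki and 301, 306 and 317 in PL9.

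Over all lists, 36 of the 169 tested members passed, or 21.3% against 23.3% of all genes, with 13 higher and 23 lower in PL9. The listed genes were thus called about as often as all genes. Of the 36, 9 were called the same way after cold.

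The widest gaps lay outside the lists, in genes that were on in one line and off in the other. With on meaning a value of at least 5 in all 3 libraries and off a value of at most 0.1 in all 3, 212 genes were on in PL9 and off in Sasanishiki, and 56 were on in Sasanishiki and off in PL9. Since the rule fixes the difference, no test is given. Of the 212, 155 (73.1%) met the same rule after cold, and of the 56, 35 (62.5%) did. The median mean level in the line that was on was 14.8 for the first set and 15.1 for the second. In untreated Nipponbare, 166 of the 212 were on and 6 off, while 8 of the 56 were on and 26 off. Lambayeque1 gave 172 on and 4 off of the 212, and 7 on and 31 off of the 56. Reads were assigned to the reference build IRGSP-1.0, which is of Nipponbare, per the submitters' processing notes. A gene that is not transcribed and one that is missing from a line or differs from the reference sequence would all be listed near 0, and they cannot be told apart here.

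Among called identifiers without a checked name, the largest differences were of this kind. Os02g0123116 was at 0 in all untreated Sasanishiki libraries and at 506, 298 and 150 in PL9. Os07g0136500 was at 0.153, 0 and 0 in Sasanishiki and at 205, 231 and 234 in PL9, and its PL9 values after cold were 221, 237 and 255. In the other direction, Os04g0604500 stood at 225, 203 and 296 in Sasanishiki and at 0 in all untreated PL9 libraries. Os03g0823350 stood at 244, 228 and 213 in Sasanishiki and at 0 in PL9. After cold this last gene was listed at 0, 1.82 and 3.78 in Sasanishiki. The other 3 kept their contrast after cold, with no overlap between the lines.

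The differences were looked at again in the cold-treated libraries of the same lines, which are other libraries than the untreated ones but share the estimate of the spread. There, 4103 genes (18.2%) differed between PL9 and Sasanishiki, and 2655 genes (11.8%) were called the same way in both treatments, 1718 higher (7.64%) and 937 lower (4.17%) in PL9. These are 50.7% of the untreated calls and 64.7% of the cold calls. A further 30 genes (0.133%) were called in opposite directions. Of the 5241 untreated calls, 4574 (87.3%) had the same sign after cold. Across the tested genes, which are not independent replicates, the 2 sets of differences correlated at r = 0.748 as a description. The 2655 shared genes had a median absolute log2 difference of 1.54 untreated and 1.58 after cold, and for the 2586 untreated calls that were not shared these were 1.00 and 0.31. The difference between lines changed between treatments, by limma's interaction term, for 329 genes (1.46%).

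**Figure D4:**
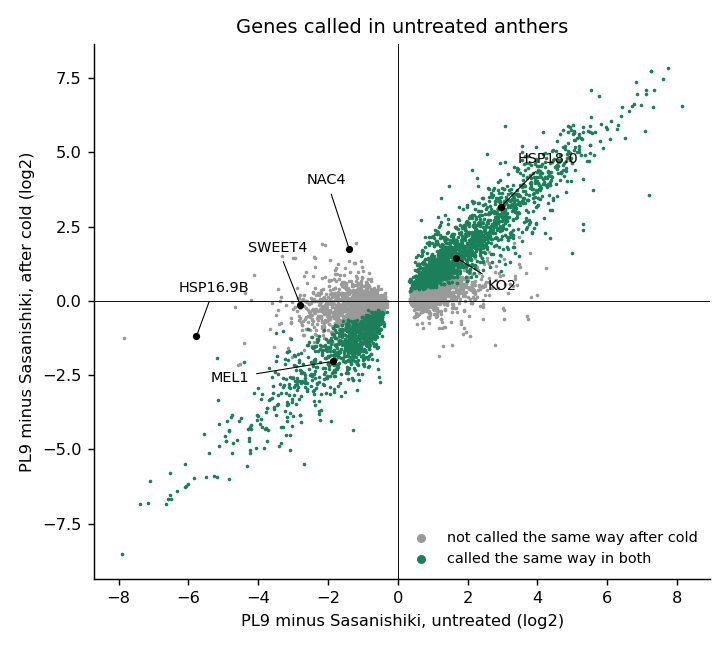
Each point is 1 of the 5241 genes called in untreated anthers, with the log2 difference PL9 minus Sasanishiki in untreated libraries on the x axis and in cold-treated libraries on the y axis (n = 3 in each group). The 2655 green genes, called the same way in both, run along the diagonal, and SWEET4 lies near 0 after cold, at -0.15.

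Called genes were not spread evenly over the genome. Chromosome and order were read from the identifiers of 22416 tested genes. The share called in untreated anthers ran from 19.4% on chromosome 3 to 32.8% on chromosome 11, with 29.0% on chromosome 12. For genes called the same way in both treatments the range was 8.64% to 20.3%, on the same chromosomes 3 and 11, with 18.2% on chromosome 12. Chromosomes 11 and 12 together had 30.9% called and 19.3% called the same way in both, while on chromosomes 1 to 10 4410 of 19783 genes were called and 10.8% called the same way in both. Their genes were less abundant, with a median level of 2.46 on the log2 scale against 2.84, and the part of that in the shares was not tested.

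Finer structure appeared within chromosomes. In 219 runs of 100 neighbouring tested genes, the share called the same way in both treatments ran from 1% to 32% with a median of 11%. In 27 runs it was at least 20%, and 13 of these lay among the 25 runs of chromosomes 11 and 12. The top run, with 32%, lay on chromosome 4 between Os04g0217600 and Os04g0293700. In 7 runs it was at most 2%, and 3 of these lay on chromosome 4 as well. Split at a point chosen after the runs had been seen, the first 500 tested genes of chromosome 4, up to Os04g0401400, had 32.0% called and 21.6% called the same way in both. The other 1422 genes of that chromosome had 15.4% and 4.78%. Without Sasanishiki library 3 the shares called the same way in both were 20.8% and 4.99%, and the shares called untreated were 33% and 19.7%. The first part was also less abundant, with a median level of 2.28 on the log2 scale against 2.85. The part of that in the shares was not tested.

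**Figure D5:**
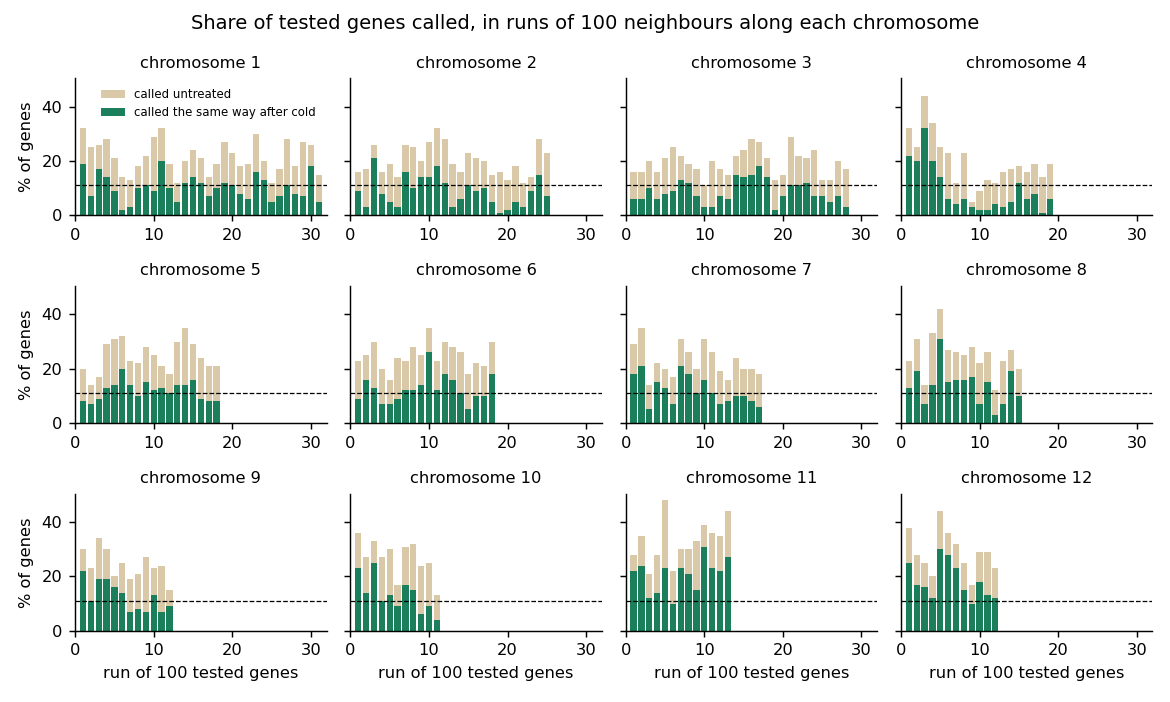
Each bar is a run of 100 neighbouring tested genes in the order of their identifiers along the 12 chromosomes (x axis); its full height is the percent called in untreated anthers, the green part is the percent called the same way after cold (y axis), and the dashed line is the median of the green shares, 11%. Chromosomes 11 and 12 hold 13 of the 27 runs with at least 20%, and the left end of chromosome 4 stands above the rest of that chromosome.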

How the data were processed

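RNA-seq of rice anthers was analysed from 24 libraries of 8 groups, 3 per group by the titles. Per the submitters' processing notes, the authors used kallisto 0.46.2, sleuth 0.30.0 and the build IRGSP-1.0; settings and annotation are not given in the sources used here. The deposited values are treated as a signal per gene: per the file headers they are named TPM, but each library sums to more than TPM allows. No counts are given, so the depth behind a value is unknown.

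Of 37910 identifiers, 32511 stood on 1 row and were used. The 5399 that stood on several rows (12274 of 44785 rows) were left out. Genes that reached 1 in 3 or more libraries were modelled as log2(value + 1) with limma 3.58.1 in R 4.3.3 (8 group means over all 24 libraries, empirical Bayes with a trend, Benjamini-Hochberg over all tested genes, threshold 0.05). Python 3.11.15 with pandas 2.3.3, numpy 2.4.6 and matplotlib 3.10.9 made the summaries and figures. The procedure was run on simulated data with known changes, with independent noise of the same spread in all groups. That run cannot show how the fit behaves where groups differ in spread or a library deviates.

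Gene names came from the RefSeq table of assembly ASM3414082v1, matched by symbol and accepted where the chromosome and the relative order of protein-coding genes matched within 2%. The 23 lists held 425 genes, of which 186 stood on 1 row with an accepted name. Named genes are the list members called without overlap (up to 15 rises and 15 falls), up to 4 members per list with the largest differences, 2 rises and 2 falls without a name, and the reference genes. A few others were added after their values were seen: MYB3R-2, ABA1, heat shock list members, and 14 further small heat shock genes, 6 of them tested. Members and lists were chosen with earlier results of these data known.

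Alternatives were another pseudocount (0.1 or 5), no filter or a filter at 5, median-of-ratios rescaling, quantile normalization, the 6 or 12 libraries of these lines alone, the replicate number as a block, and leaving out each untreated library. For named genes, the 14 alternatives of an untreated difference do not include the fit of 12 libraries. The 14 of an interaction include it but not the fit of 6, which has no cold libraries. Counts by list, position and on or off state without Sasanishiki library 3 were added after seeing the data.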

Additional observations from a re-analysis of the deposited data

Results flagged for a closer look

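For 6 of the named genes, the difference between PL9 and Sasanishiki was not the same in untreated and in cold-treated anthers, by the interaction term of limma's fit over all tested genes. The value given is the cold difference minus the untreated difference on the log2 scale, with 3 libraries in each of the 4 groups. For the sugar transporter SWEET4 it was 2.65 (SE 0.35, adjusted p = 0.00058; 0.000187 to 0.0308 over 14 alternatives), from a log2 difference of -2.79 untreated to -0.15 after cold. For Os03g0823350, which carries no checked name, it was 6.59 (SE 0.67, adjusted p = 2.24e-05; 1.28e-10 to 0.0284 over the alternatives).

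The other 4 genes lost the call under some alternatives. The small heat shock gene HSP16.9B gave 4.57 (SE 0.95, adjusted p = 0.0187; 0.000746 to 0.106), with 1.4 to 1.52 in cold-treated Sasanishiki and 0 to 0.135 in cold-treated PL9. The chromosome 3 small heat shock gene Os03g0266900 gave -3.64 (SE 0.74, adjusted p = 0.016; 0.00905 to 0.0555). The stress factor NAC4 gave 3.12 (SE 0.69, adjusted p = 0.0271; 0.00146 to 0.196), lower in PL9 before cold and higher after it. DREB2B gave 1.02 (SE 0.25, adjusted p = 0.046; 0.00073 to 0.214) and was not called under 9 of the 14 alternatives.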

How the results depend on the processing

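The count of 5241 called genes became 3369 when the 6 untreated libraries were fitted alone, and ranged from 3892 to 6101 when each untreated library was left out, the lowest without Sasanishiki library 1 and the highest without library 3. The share of calls higher in PL9 was 55.2%, and 51.7% to 63% over the alternatives. The count called the same way in both treatments, 2655, ranged from 2373 to 2644 with a library left out. The count of genes whose difference changed between treatments, 329, was the least stable: 70 with the 12 libraries of both lines alone, 189 with a filter at 5, and 159 (without PL9 library 1) to 972 (without Sasanishiki library 3) with a library left out, among them 169 without Sasanishiki library 1. Without Sasanishiki library 3, genes on in one line and off in the other numbered 246 (on in PL9) and 64 (on in Sasanishiki). With the replicate number as a block the 3 counts were 5036, 2549 and 252. The labels do not say that a number marks a shared plant or day. After each group mean was subtracted, the deviations of same-numbered PL9 and Sasanishiki libraries correlated at 0.0205, -0.113 and -0.176. The block is therefore not used. Of 88 named genes, 45 kept their direction and side of the threshold under all 14 alternatives, and so did 16 of the 38 called ones. No named gene that was called changed direction. With 3 libraries a group and no counts, differences in low genes are poorly resolved.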
